A study of Mus musculus with 8 samples.

Results

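The globin genes encode the oxygen-carrying chains of hemoglobin, and 7 of them are described here in RNA sequencing libraries of 32D cells, a mouse myeloid cell line that depends on interleukin-3 (IL-3) for growth. The 7 genes are Hba-a1, Hba-a2 and Hba-x of the alpha family and Hbb-bs, Hbb-bt, Hbb-y and Hbb-bh1 of the beta family, taken by name from a deposited table of 56748 genes. They were selected on their FPKM levels in these same libraries, which were already known to differ between the groups in all 4 comparisons made here. Their levels and differences are therefore a description and carry no test. All 7 passed the filter used for testing, an FPKM (fragments per kilobase of gene length, scaled for sequencing depth) of at least 1 in at least 2 of 8 libraries. Only 4 would have passed without the Jak2V617F libraries.

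Every clone expressed an added human receptor together with murine Jak2, either Jak2WT or Jak2V617F, the activated form of the kinase that drives most myeloproliferative neoplasms. In each background, clones that kept both glucose transporters (GLUT1/3 WT) were set against clones in which Slc2a1 and Slc2a3 had been disrupted by CRISPR-Cas9 (GLUT1/3 dKO). This gave 4 groups of 2 clones, numbered 1 and 3, each grown from a single cell and sequenced once after 24 h in RPMI with 5 mM glucose, 1 mM glutamine, 2 ng/ml IL-3 and 10% serum. As a model the groups are limited to clones of one cell line with an added receptor and an added kinase, and the dKO clones of a background share the size of their Slc2a1 deletion in the genotyping. P-values therefore measure the spread between 2 clones, which is a spread between clones and not between animals or cultures.

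Recovered reads on genes ranged from 16846011 to 48884329 per library. Slc2a1, which encodes GLUT1, was lower in dKO clones by 1.90 on the log2 scale in Jak2V617F (limma, adjusted p = 0.000444). In Jak2WT it was 9.47 and 9.17 FPKM in dKO clones, below the 44.7 and 48.4 of GLUT1/3 WT clones (adjusted p = 0.000872). Slc2a3, which encodes GLUT3, was lower in Jak2V617F dKO clones (log2 difference -2.39, adjusted p = 0.0115), while the difference in Jak2WT did not pass the threshold (-1.71, adjusted p = 0.0612). Over the alternative settings these adjusted p values ran from 0.000229 to 0.0602 and from 0.00946 to 0.219. Slc2a3 FPKM in the Jak2WT dKO clones was 16.0 and 49.5, below the 97.7 and 91.9 of the Jak2WT GLUT1/3 WT clones.

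Hemoglobin is a tetramer of alpha-type and beta-type chains, each of which holds a heme group. In the mouse, Hba-x and the beta-type genes Hbb-y and Hbb-bh1 serve the primitive red cells of the embryo, whereas Hba-a1, Hba-a2, Hbb-bs and Hbb-bt serve the definitive red cells of fetus and adult. Erythroid transcription factors such as GATA1, KLF1 and the TAL1, LMO2 and LDB1 complex act on the promoters and on distant enhancers of both clusters, and red cell precursors normally make alpha and beta chains in balance.

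In mm39 the beta family lies on the reverse strand of chromosome 7, with Hbb-bt (ENSMUSG00000073940) at 103461731 to 103463203, Hbb-bs (ENSMUSG00000052305) at 103475741 to 103477303, Hbb-bh1 (ENSMUSG00000052217) at 103490844 to 103492371 and Hbb-y (ENSMUSG00000052187) at 103500956 to 103502423. The alpha family lies on the forward strand of chromosome 11, with Hba-x (ENSMUSG00000055609) at 32226400 to 32228116, Hba-a1 (ENSMUSG00000069919) at 32233511 to 32234465 and Hba-a2 (ENSMUSG00000069917) at 32246489 to 32247298. Each is protein coding, with 3 exons in its main transcript in the GENCODE vM39 annotation.

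The promoters are shown because the members of a cluster, selected on their levels, moved together while differing widely in level. Other genes of the clusters, given below, did not all follow. RefSeq promoters (GRCm38.p6, a different build from the gene positions above) matched 6 of the 7 genes, and Hbb-bh1 had no entry. The 120 bases before the annotated start are printed 5′ to 3′, with capitals for 4 motifs searched on both strands, the TATA box (TATAA), the CCAAT box (CCAAT), the CACCC box (CACCC) bound by KLF1 and related factors, and the GATA site (GATAA).
Hba-a1 (chr11:32283552-32283671, forward strand): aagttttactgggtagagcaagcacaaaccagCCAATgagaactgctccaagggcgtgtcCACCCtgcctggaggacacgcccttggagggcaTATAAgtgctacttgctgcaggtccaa
Hbb-bs (chr7:103827929-103828048, reverse strand): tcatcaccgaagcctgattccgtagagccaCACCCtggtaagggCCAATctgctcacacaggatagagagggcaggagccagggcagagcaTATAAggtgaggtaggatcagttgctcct
Hbb-bt (chr7:103813924-103814043, reverse strand): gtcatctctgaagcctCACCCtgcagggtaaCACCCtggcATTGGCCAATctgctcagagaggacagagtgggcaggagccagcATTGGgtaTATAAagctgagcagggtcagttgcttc
Hba-x (chr11:32276480-32276599, forward strand): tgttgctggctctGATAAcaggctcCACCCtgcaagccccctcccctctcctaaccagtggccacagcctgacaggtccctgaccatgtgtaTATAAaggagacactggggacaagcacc
Hbb-y (chr7:103853208-103853327, reverse strand): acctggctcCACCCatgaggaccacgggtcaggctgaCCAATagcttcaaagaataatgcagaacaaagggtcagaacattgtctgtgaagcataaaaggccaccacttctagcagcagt

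The 250 bases before the start of Hba-a2 share an identical run of 247 bases with those of Hba-a1, so its promoter is not printed. Those of Hbb-bs and Hbb-bt were 69.3% identical, with a longest shared run of 14 bases, and the Hbb-bt stretch held 3 CCAAT boxes, 2 of them on the opposite strand, where the Hbb-bs stretch held 1. Over the whole promoter windows of 300 bases, a CACCC box was found in all 6 promoters, and in 57.5% of the 32851 promoters in the table. A GATA site was found in all 6 and in 25.4% of all promoters, a TATA box in 5, all but Hbb-y, and in 24.9%, and a CCAAT box in 5, all but Hba-x, and in 37.4%. In the printed stretches only Hba-x held a GATA site. The TATAA and CCAAT letters can overlap other matches on the opposite strand, and a match is a description of letters, not of binding.

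The adult genes of each family are near copies, which limits how their reads can be told apart. Their coding sequences differed at 1 aligned position in each pair, Hba-a1 and Hba-a2 being 99.8% identical over 426 bases, and Hbb-bs and Hbb-bt 99.8% over 441 bases. Of the 150-base windows of the main transcripts, the length of a read, 62.8% of those of Hba-a1 and 72.1% of those of Hba-a2 occurred unchanged in the other gene. For Hbb-bs and Hbb-bt the shares were 55.0% and 50.6%, whereas Hba-x, Hbb-y and Hbb-bh1 shared no window with another gene. How reads that fit both copies were counted is not given in the sources used here. The split within each adult pair and the sum of each pair are therefore uncertain, and their part in the levels was not tested. Hbb-bs and Hbb-bt are the names of the adult pair in the reference strain; Hbb-b1 and Hbb-b2, the pair of other strains, were not analysed here.

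Hba-a1 was the one globin gene above 1 FPKM in every library. In bulk RNA, more globin-making cells and more globin RNA per cell cannot be told apart, here or for the genes that follow. Its FPKM was 46.7 in clone 1 and 66.3 in clone 3 of Jak2WT GLUT1/3 WT, from 1502 and 934 reads. In Jak2WT GLUT1/3 dKO it was 177 and 224, and in Jak2V617F GLUT1/3 WT 709 and 430.2. In Jak2V617F GLUT1/3 dKO it reached 2007 and 993, the 6th and 25th highest of all genes in these libraries, against ranks of 1023 and 700 in Jak2WT GLUT1/3 WT. The 4 groups did not overlap and each group stood above the one before it. The dKO clones stood above their GLUT1/3 WT clones by 1.82 ± 0.37 on the log2(FPKM + 1) scale in Jak2WT (standard error of the limma fit, n = 2 and 2) and by 1.35 ± 0.37 in Jak2V617F, or 3.55-fold and 2.63-fold by mean FPKM. In Jak2V617F the gap was narrow, since the lower dKO clone exceeded the higher GLUT1/3 WT clone 1.40-fold, and the difference was 0.84 without dKO clone 1.

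Hba-a2, which encodes almost the same chain, was far lower. No read was counted on it in either Jak2WT GLUT1/3 WT clone. Its FPKM was 0.420 and 0.122 in Jak2WT GLUT1/3 dKO, 0.280 and 2.57 in Jak2V617F GLUT1/3 WT and 13.8 and 3.74 in Jak2V617F GLUT1/3 dKO. The Jak2V617F groups did not overlap, with a log2 difference of 1.97 ± 0.60, but the lower dKO clone stood only 1.46-fold above GLUT1/3 WT clone 3. Over the alternative settings this difference ran from 1.15 to 3.08. The Jak2WT dKO and the Jak2V617F GLUT1/3 WT values overlapped. With 8 and 4 reads in the Jak2WT dKO clones against 0, close to the 3 reads per library that a count of 0 allows, no fold is given between the Jak2WT groups.

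**Figure D1:**
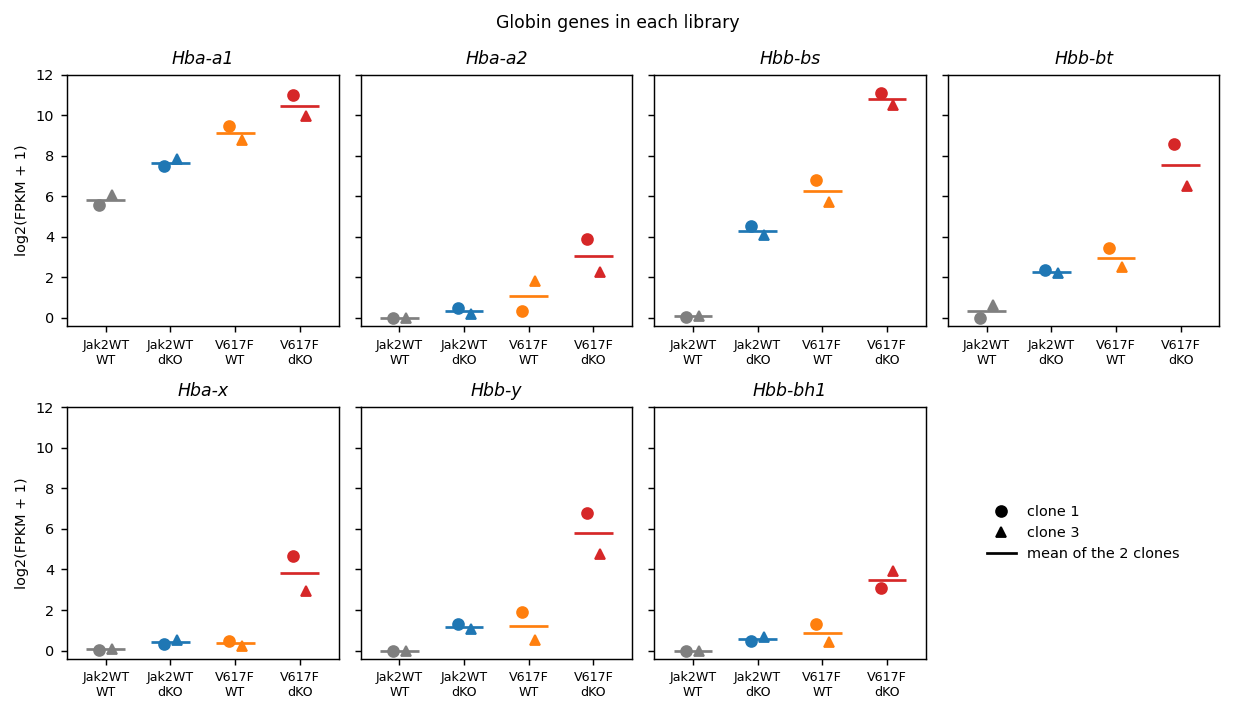
Level of each globin gene in each library, as log2(FPKM + 1), for the 4 groups on the horizontal axis. Circles are clone 1, triangles clone 3 and bars the mean of 2 clones; Hba-a1 is present in all groups, and all 7 genes are highest in Jak2V617F GLUT1/3 dKO.

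Hbb-bs, an adult beta globin, covered the widest range of the 7 genes. A single read was counted on it in each Jak2WT GLUT1/3 WT clone (FPKM 0.0329 and 0.0751). In Jak2WT GLUT1/3 dKO it had 482 and 601 reads (22.0 and 15.9 FPKM), and in Jak2V617F GLUT1/3 WT 1806 and 1157 reads (109.8 and 50.5 FPKM). In Jak2V617F GLUT1/3 dKO it had 58964 and 27843 reads (2209 and 1437 FPKM), which made it the 4th and 15th highest gene. No groups overlapped. The mean was 80.2 ± 41.9 FPKM in Jak2V617F GLUT1/3 WT and 1823 ± 545 in Jak2V617F GLUT1/3 dKO (SD, n = 2 each), 22.7-fold apart with a log2 difference of 4.56 ± 0.36. Between the Jak2WT groups the log2 difference was 4.22 ± 0.36. With 2 reads in all on the low side, the read ratio there was 396, with an exact 95% interval for counting error of 109 to 3275.

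Hbb-bt, the second adult beta gene, followed at a lower level. It had 0 and 7 reads in the Jak2WT GLUT1/3 WT clones (FPKM 0 and 0.574). In Jak2WT GLUT1/3 dKO its FPKM was 4.13 and 3.58, and in Jak2V617F GLUT1/3 WT 9.83 and 4.68. In Jak2V617F GLUT1/3 dKO it was 376 and 89.0. The groups did not overlap, but the 2 Jak2V617F dKO clones differed 4.23-fold from each other. The log2 difference between the Jak2V617F groups was 4.55 ± 0.62, close to that of Hbb-bs, and that between the Jak2WT groups was 1.95 ± 0.62. With 0 and 7 reads on the low side, the latter depends on the pseudocount of 1 and ran up to 5.65 under the alternative settings, so which background had the larger difference is not given. Hbb-bt made up 14.6% and 5.83% of the adult beta FPKM in the Jak2V617F dKO clones and 8.22% and 8.47% in the Jak2V617F GLUT1/3 WT clones.

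The embryonic genes were at or next to 0 in Jak2WT GLUT1/3 WT. Hbb-y, the embryonic epsilon-type chain, had no read there. Its FPKM was 1.49 and 1.06 in Jak2WT GLUT1/3 dKO, 2.80 and 0.424 in Jak2V617F GLUT1/3 WT, and 109.9 and 26.6 in Jak2V617F GLUT1/3 dKO, from 2419 and 424 reads. The Jak2V617F dKO clones stood at least 9.47-fold above every Jak2V617F GLUT1/3 WT clone, whereas the 2 middle groups overlapped. The log2 difference between the Jak2V617F groups was 4.57 ± 0.65 and that between the Jak2WT groups 1.18 ± 0.65, where the dKO mean was at least 6.49-fold above the floor of 3 reads per library.

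Hba-x, the embryonic zeta-type alpha chain, had 1 read in each Jak2WT GLUT1/3 WT clone. Its FPKM was 0.261 and 0.454 in Jak2WT GLUT1/3 dKO and 0.398 and 0.179 in Jak2V617F GLUT1/3 WT, where the values overlapped. In Jak2V617F GLUT1/3 dKO it was 24.6 and 6.72, from 801 and 159 reads. Mean FPKM was 54.2-fold higher in these clones than in Jak2V617F GLUT1/3 WT. The log2 difference of 3.45 ± 0.47 is smaller than this fold because a pseudocount of 1 compresses low values.

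Hbb-bh1, a second embryonic beta gene, ran against the other members in how the clones ranked. It had no read in Jak2WT GLUT1/3 WT, 0.400 and 0.596 FPKM in Jak2WT GLUT1/3 dKO and 1.52 and 0.328 in Jak2V617F GLUT1/3 WT. In Jak2V617F GLUT1/3 dKO it was 7.37 in clone 1 and 14.3 in clone 3. Clone 3 was the higher one for this gene alone, with a ratio of clone 1 to clone 3 of 0.515, against 1.54 to 4.23 for the other 6 members. The log2 difference between the Jak2V617F groups was 2.63 ± 0.36.

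The highest gene of each cluster, Hba-a1 or Hbb-bs, was neither the first nor the last along it, except in Jak2WT GLUT1/3 WT, where Hbb-bt had the highest beta mean at 0.287 FPKM. In the beta cluster the embryonic Hbb-y lies first, Hbb-bh1 10.1 kb downstream, Hbb-bs 25.1 kb and Hbb-bt 39.2 kb. In the alpha cluster Hba-a1 lies 7.11 kb and Hba-a2 20.1 kb from the start of Hba-x. Among genes of the clusters that are not members, Hbb-bh2 and Hbb-bh3 had no read in any library, Hbb-bh0 had 0.446 FPKM in Jak2V617F GLUT1/3 dKO clone 1 and 0 elsewhere, and Hbq1a reached 0.263 at most. The theta-type gene Hbq1b was 5.36 and 0.766 in Jak2V617F GLUT1/3 dKO, overlapping the 1.80 and 0.324 of Jak2V617F GLUT1/3 WT, and did not pass the test (limma, log2 difference 0.80, adjusted p = 0.336). Globins outside the clusters stayed low, with myoglobin (Mb) at 0 in every library and Cygb, Ngb and Adgb at or below 0.301 FPKM.

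**Figure D2:**
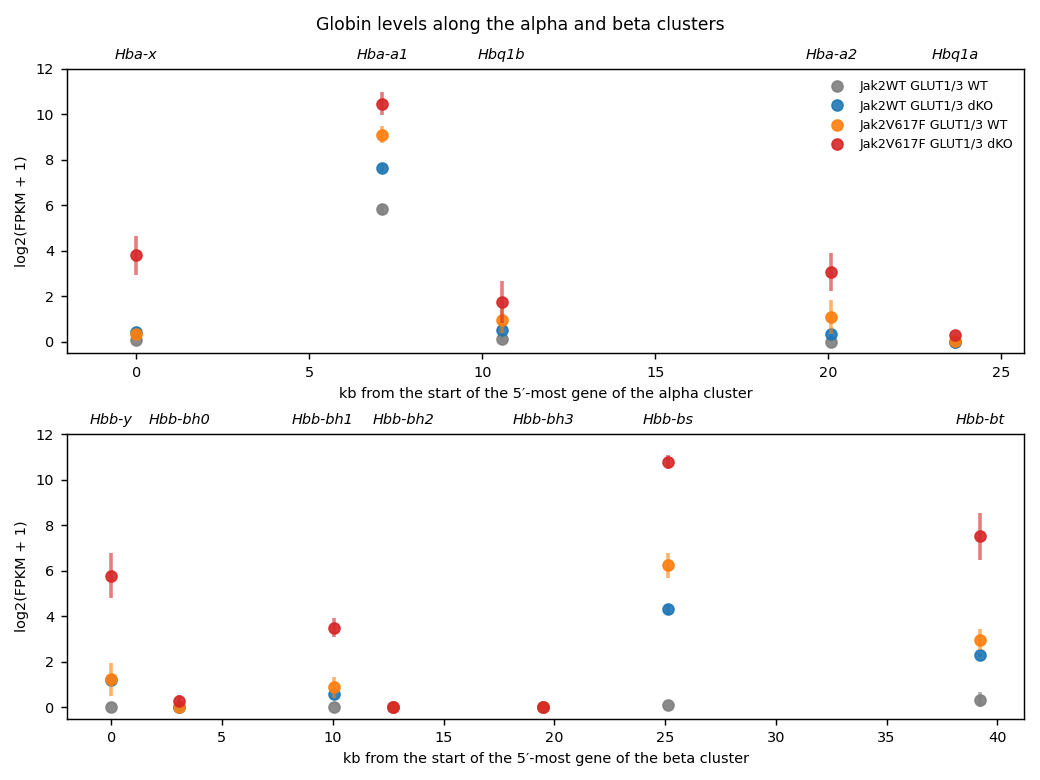
Mean log2(FPKM + 1) of each group for the genes of the alpha (top) and beta (bottom) clusters, against the distance in kb from the start of the 5′-most gene; vertical lines join the 2 clones. Hba-a1 in every group, and Hbb-bs in every group but Jak2WT GLUT1/3 WT, stand above their neighbors, and Hbb-bh2 and Hbb-bh3 lie at 0 in every group.

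Widely expressed genes listed as neighbors of the alpha cluster were tested, since they were not members. Among them Luc7l lies on chromosome 17 here, and so not beside the cluster on chromosome 11. Snrnp25, a splicing factor gene, was 44.1 and 39.2 FPKM in Jak2V617F GLUT1/3 dKO and 28.1 and 23.7 in Jak2V617F GLUT1/3 WT, and rose by 0.67 ± 0.12 on the log2 scale (limma, adjusted p = 0.00649). Mpg, a DNA repair glycosylase gene, rose by 0.92 ± 0.20 (adjusted p = 0.0148), a call lost under some alternatives (adjusted p up to 0.0662). Nprl3, whose introns hold the main alpha globin enhancers, did not pass in this comparison (-0.26 ± 0.12, adjusted p = 0.152), and neither did Luc7l (0.20 ± 0.14, adjusted p = 0.335). In Jak2WT none of these 4 genes passed between dKO and GLUT1/3 WT, with differences from -0.23 to 0.49. Between backgrounds, Mpg and Nprl3 were higher in Jak2V617F, Mpg by 0.93 among GLUT1/3 WT and 1.37 among dKO clones (adjusted p = 0.0135 and 0.00581), and Nprl3 by 0.58 and 0.56 (adjusted p = 0.0116 and 0.0221). Snrnp25 was higher among dKO clones by 0.70 (adjusted p = 0.00923). Of these calls, that of Mpg among dKO clones was kept under every alternative computed, and the others reached an adjusted p of 0.0650 to 0.124. Rhbdf1 and Il9r, at no more than 0.445 and 0.0349 FPKM, did not pass the filter.

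Summed over the family, alpha-type FPKM was 56.5 ± 13.9 in Jak2WT GLUT1/3 WT, 201 ± 32.7 in Jak2WT GLUT1/3 dKO, 571 ± 196 in Jak2V617F GLUT1/3 WT and 1524 ± 737 in Jak2V617F GLUT1/3 dKO (SD, n = 2 each). Beta-type FPKM was 0.341 ± 0.436, 24.6 ± 4.87, 90.0 ± 48.1 and 2135 ± 802 in the same order. Alpha thus exceeded beta in 6 libraries, and beta exceeded alpha in both Jak2V617F GLUT1/3 dKO clones. Whether reads that fit both adult copies were counted is not known, and the shared windows were a larger share in the alpha pair. Their part in the balance of alpha and beta was not tested. The ratio of alpha to beta FPKM was 1421 and 102 in Jak2WT GLUT1/3 WT, where it rests on 1 and 8 beta reads. It was 6.36 and 10.6 in Jak2WT GLUT1/3 dKO, 5.73 and 7.73 in Jak2V617F GLUT1/3 WT, and 0.757 and 0.640 in Jak2V617F GLUT1/3 dKO. The 2 middle groups overlapped in this ratio although their alpha sums did not. Leaving out 1 library at a time moved the Jak2V617F dKO difference of the alpha sum between 0.85 without dKO clone 1 and 1.88 without dKO clone 3, and that of the beta sum between 4.04 and 5.18.

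Beta-type genes gave 56.9% and 61.0% of the globin FPKM in Jak2V617F GLUT1/3 dKO, 14.9% and 11.4% in Jak2V617F GLUT1/3 WT, 13.6% and 8.60% in Jak2WT GLUT1/3 dKO and 0.0703% and 0.968% in Jak2WT GLUT1/3 WT. The 3 embryonic genes gave 2.99% and 1.85% in Jak2V617F GLUT1/3 dKO, the highest of the 4 groups in this share. Within the beta family alone the order differed, with 6.76% and 7.83% embryonic FPKM in Jak2WT GLUT1/3 dKO above the 4.34% and 2.61% of Jak2V617F GLUT1/3 dKO. Of all globin FPKM they gave 1.04% and 0.858% in Jak2WT GLUT1/3 dKO, above the 0.567% and 0.190% of Jak2V617F GLUT1/3 WT, although every embryonic gene overlapped between these 2 groups in its own FPKM. All 7 genes together made up 1.59% and 0.868% of the summed FPKM in Jak2V617F GLUT1/3 dKO, against 0.0167% and 0.0230% in Jak2WT GLUT1/3 WT.

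**Figure D3:**
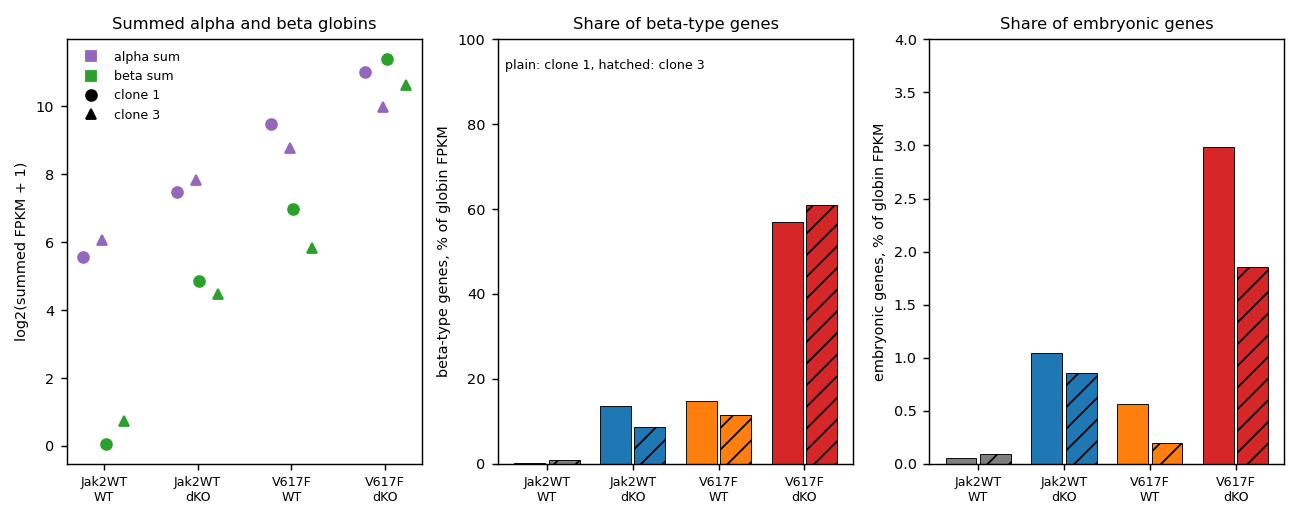
Left, summed alpha and beta FPKM of each library as log2(summed FPKM + 1); middle and right, the percent of globin FPKM from beta-type and from embryonic genes, with plain bars for clone 1 and hatched bars for clone 3. The beta share is 56.9% and 61.0% in Jak2V617F GLUT1/3 dKO and at most 14.9% elsewhere.

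Set side by side, all 7 genes were higher in dKO than in GLUT1/3 WT clones in Jak2V617F, with no overlap, and differences from 1.35 to 4.57 (median 3.45). Of all 11818 genes tested, 29.9% were higher and 34.4% lower without overlap in this comparison. In Jak2WT the 7 genes were also higher in dKO clones without overlap, where 34.1% of all genes were higher and 32.0% lower. In Jak2V617F against Jak2WT they were higher among GLUT1/3 WT clones without overlap, where 35.8% of all genes were higher and 33.6% lower. Among dKO clones they were higher without overlap by 2.73 to 6.50 (median 3.37), where 27.5% were higher and 33.1% lower. The medians over all tested genes lay between -0.02 and 0.01 in these comparisons. Against Jak2WT GLUT1/3 WT, where the members other than Hba-a1 had at most 7 reads in a library, the size of a log2 difference depends on the pseudocount. In Jak2WT dKO clones it was 1.18 for Hbb-y with a pseudocount of 1 and up to 5.29 under the alternatives, and for Hbb-bs 4.22 and up to 7.99. The dKO effects of the 2 backgrounds are therefore not ranked for these genes. Each group enters 2 of the comparisons, so they share libraries. Since the genes were chosen for this pattern, nothing is read from these counts.

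Jak2WT GLUT1/3 WT was lowest and Jak2V617F GLUT1/3 dKO highest for every member. Between the middle groups, Jak2V617F GLUT1/3 WT stood above Jak2WT GLUT1/3 dKO without overlap for Hba-a1, Hbb-bs and Hbb-bt, whereas for Hba-a2, Hba-x, Hbb-y and Hbb-bh1 the clones overlapped. Every one of the 28 differences kept its sign under the 17 or 18 alternative settings computed for it. Since the groups compared did not overlap, leaving out a library or changing the pseudocount, trend or filter could not turn a sign. Nothing is therefore read from this count either.

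Non-member genes of red cell formation were tested from 8 lists of 103 genes, of which 102 were in the table and 83 were tested. In Jak2V617F, 18 rose and 13 fell in dKO clones against GLUT1/3 WT clones, 52 not passing (limma, adjusted p under 0.05), where 13.7% of all genes tested rose and 16.2% fell. The median over the lists was 0.00 and that over all genes -0.02. With libraries scaled to the same total, calls over all genes turned from 45.7% to 60.2% higher. Without GLUT1/3 WT clone 3 the lists held 9 higher genes, and without GLUT1/3 WT clone 1, 8 lower ones. In Jak2WT, 9 rose and 3 fell, against 7.62% and 6.06% of all genes. Here the share of calls that were higher turned from 55.7% to 33.9% with the same scaling, and the lists then held 9 higher and 12 lower genes, or 11 and 9 with voom on recovered reads. The counts in Jak2WT rest on single libraries, with 2 higher without GLUT1/3 WT clone 1, 3 without GLUT1/3 WT clone 3 and 5 without dKO clone 1, and with 0 or 1 lower without any one of the 4 libraries compared.

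A list of 13 activators of globin genes and cofactors of their complexes, some of which also repress, held 4 genes that rose and 2 that fell in Jak2V617F dKO clones. Lmo2, a bridging protein of the TAL1 complex, was 70.7 and 72.0 FPKM in Jak2V617F GLUT1/3 dKO and 31.9 and 27.5 in Jak2V617F GLUT1/3 WT. It was 17.9 and 18.9 in Jak2WT GLUT1/3 dKO and 6.77 and 7.69 in Jak2WT GLUT1/3 WT, so its 4 groups stood in the order of Hba-a1, Hbb-bs and Hbb-bt without overlap. Lmo2 rose by 1.24 ± 0.10 in dKO clones of both backgrounds (adjusted p = 0.000459 in Jak2V617F, 0.00162 in Jak2WT) and by 1.90 ± 0.10 in Jak2V617F against Jak2WT. Tal1, its DNA-binding partner, rose by 0.52 ± 0.11 in Jak2V617F dKO clones and by 0.60 ± 0.11 in Jak2WT dKO clones.

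Klf1, the activator of adult beta globin, was 23.6 and 18.3 FPKM in Jak2V617F GLUT1/3 dKO and 16.0 and 10.8 in Jak2V617F GLUT1/3 WT, and rose by 0.62 ± 0.19 (adjusted p = 0.0418). In Jak2WT its difference was 0.19 ± 0.19. Gata1, the central erythroid factor, went the other way between the Jak2V617F groups and fell by 0.50 on the log2 scale in dKO clones (adjusted p = 0.0246). It was 41.1 and 34.0 FPKM there, against 58.1 and 48.7, which lay above the 30.9 and 28.8 of Jak2WT GLUT1/3 WT. Cbfa2t3, a corepressor of the GATA1 and TAL1 complex, fell by 0.72 in Jak2V617F, with 45.8 and 44.0 FPKM in dKO clones against 80.7 and 69.3. Tcf3, a binding partner of TAL1 named after its values were seen, rose by 0.35. Nfe2 did not pass in either background (-0.01 and -0.12). The calls of Klf1, Gata1, Tal1 and Tcf3 in Jak2V617F were lost under some alternative settings, with adjusted p up to 0.175, 0.118, 0.0627 and 0.122, and that of Tal1 in Jak2WT with adjusted p up to 0.103.

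Of 12 tested repressors and switching factors, 3 fell and 0 rose in Jak2V617F dKO clones, and 0 passed in Jak2WT. Sox6, which silences Hbb-y in definitive cells, was 1.66 and 2.73 FPKM in Jak2V617F GLUT1/3 dKO against 6.06 and 6.58 in Jak2V617F GLUT1/3 WT, and fell by 1.22 on the log2 scale (adjusted p = 0.0019). It was 7.40 and 6.56 in Jak2WT GLUT1/3 WT. Myb, a factor of immature progenitors, fell by 0.77 (adjusted p = 0.0204) and Spi1, which encodes the myeloid factor PU.1, by 0.59 (adjusted p = 0.0124). Both calls were lost under some alternatives, with adjusted p up to 0.0962 for Myb and 0.0620 for Spi1, while that of Sox6 was kept. Bcl11a, the main silencer of embryonic and fetal globins, had no read in any library. Of 5 tested genes of the heme-regulated kinase and heme degradation list, 2 rose and 2 fell in Jak2V617F. Hmox1, which breaks heme down, was 17.5 and 17.8 FPKM in dKO clones against 69.2 and 56.6, and fell by 1.77 (adjusted p = 0.000379). In Jak2WT it fell by 0.92. Blvrb, a biliverdin reductase gene, rose by 1.08 and 0.55 in the 2 backgrounds, and Blvra by 0.48 in Jak2V617F. Eif2ak1, the gene of the heme-regulated kinase, fell by 0.37 in Jak2V617F and was named after its values were seen. In Jak2V617F the calls of Blvra and Eif2ak1 were lost under some alternatives (adjusted p up to 0.106 and 0.134), and in Jak2WT those of Blvrb and Hmox1 (up to 0.163 and 0.0578). Ahsp, the alpha chain chaperone, was not analysed here.

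Among 14 tested genes of heme synthesis and transport, 4 rose and 0 fell in Jak2V617F dKO clones. Alad, which joins 2 molecules of aminolevulinate in the pathway's second step, was 86.1 and 67.5 FPKM there, against 17.6 and 14.8 in Jak2V617F GLUT1/3 WT and 17.6 to 22.9 in the 4 Jak2WT libraries. It rose by 2.17 ± 0.14 (adjusted p = 0.00036). Alas1, the housekeeping form of the first enzyme, rose by 0.93 ± 0.08 in Jak2V617F and by 0.66 ± 0.08 in Jak2WT. Cpox, named after its values were seen, rose by 0.31 in Jak2V617F. In Jak2WT 3 rose, among them Slc25a38, a mitochondrial glycine carrier, by 0.65. The call of Cpox was lost under some alternatives (adjusted p up to 0.238), as were those of Alas1 and Slc25a38 in Jak2WT (up to 0.0589 and 0.0529). Alas2, the erythroid form of the first enzyme, stayed between 0 and 0.227 FPKM in all libraries, and Fech, which inserts iron into heme, between 1.54 and 3.23 with differences of 0.00 and -0.03.

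Of 10 tested genes of iron uptake and storage, 1 rose and 2 fell in Jak2V617F dKO clones. Tfrc, the transferrin receptor, rose by 0.79 ± 0.18 (adjusted p = 0.0152), Tfr2 fell by 1.26 and Ncoa4, which delivers ferritin for breakdown, fell by 1.17. The calls of Tfrc and Tfr2 were lost under some alternatives, with adjusted p up to 0.0704 and 0.0881. In Jak2WT 0 of 10 passed. Of 9 tested red cell enzymes and maturation factors, 0 rose and 2 fell in Jak2V617F, Bnip3l by 0.82 and Xpo7 by 0.51. In Jak2WT Gpx1 rose by 0.74, and Bnip3l and Bpgm fell by 0.45 and 0.44, all 3 calls being lost under some alternatives (adjusted p up to 0.0502, 0.161 and 0.163). Of 10 tested genes of erythropoietin signaling, 4 rose and 2 fell in Jak2V617F and 0 passed in Jak2WT. The feedback inhibitors Socs1 and Socs3 rose by 0.95 and 0.91, while the kinase genes Lyn and Pim1 fell, Lyn by 0.71. Stat5a and Cish also rose, and like Pim1 they were named after their values were seen. Of these 6 calls only that of Lyn was kept under every alternative computed, with adjusted p up to 0.0699 for Socs1, 0.107 for Socs3, 0.182 for Stat5a, 0.117 for Cish and 0.0643 for Pim1. The receptor gene Epor did not pass in either background (0.14 and -0.09).

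Of 10 tested red cell membrane genes, 3 rose, 0 fell and 7 did not pass in Jak2V617F dKO clones. Kel, the Kell blood group glycoprotein, was 85.7 and 69.1 FPKM there, 10.8 and 11.0 in Jak2V617F GLUT1/3 WT, 1.19 and 0.563 in Jak2WT GLUT1/3 dKO and 0 and 0.0624 in Jak2WT GLUT1/3 WT. It rose by 2.71 ± 0.17 in Jak2V617F (adjusted p = 0.000357) and by 0.84 ± 0.17 in Jak2WT (adjusted p = 0.0213), where the call was lost under some alternatives (adjusted p up to 0.122). Ank1, which ties the skeleton to the membrane, rose by 1.47 in Jak2V617F and had a difference of 0.09 in Jak2WT. Rhag, of the Rh complex, rose by 1.83 in Jak2WT and did not pass in Jak2V617F (-0.51, adjusted p = 0.0787). The other 8 of 18 listed genes did not pass the filter. Slc4a1, the anion exchanger band 3, stayed at or below 0.312 FPKM. The carbonic anhydrase gene Car1 stayed at or below 0.0231 and Car2 had no read. These genes, normally abundant beside globin in maturing red cells, were thus near 0 in the libraries where Hbb-bs ranked 4th and 15th.

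**Figure D4:**
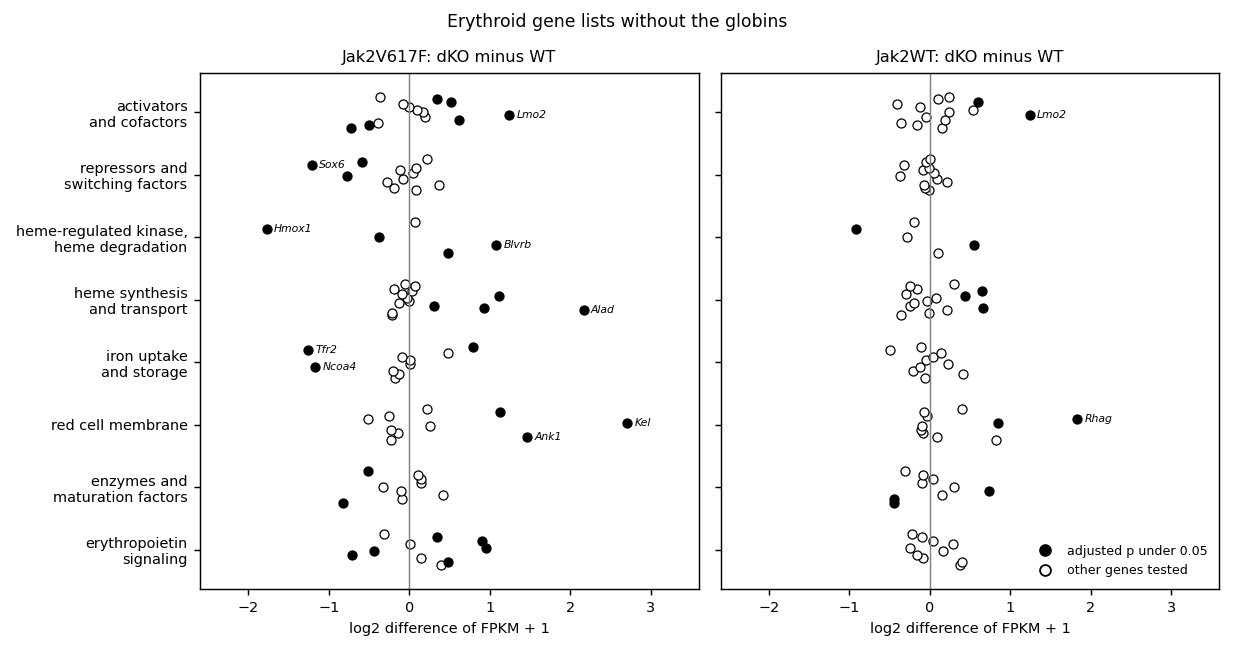
Log2 difference of FPKM + 1 between dKO and GLUT1/3 WT clones for each tested gene of the 8 erythroid lists, in Jak2V617F (left) and Jak2WT (right). Filled points passed an adjusted p of 0.05 (18 higher and 13 lower in Jak2V617F, 9 and 3 in Jak2WT), and names are given for genes described in the text beyond a difference of 1.

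The same lists were tested between backgrounds. Among GLUT1/3 WT clones, 28 list genes rose and 11 fell in Jak2V617F against Jak2WT, where 15.3% and 14.9% of all genes did. Scaling to the same total turned the share of higher calls over all genes from 50.7% to 29.4% and moved the median over all genes to -0.12 from 0.01. The higher count was 18 without Jak2V617F GLUT1/3 WT clone 1, and the lower count 3 to 6 without any one of the 4 libraries compared. Of the membrane list 7 rose and 0 fell, including Rhag (3.90 ± 0.19) and Kel (3.53 ± 0.17). Of the activators and cofactors 7 rose and 2 fell, and the 7 included Lmo2, Zfpm1 (1.53), Cbfa2t3 (0.94), Gata1 (0.81) and Tal1 (0.53), of which the call of Tal1 was lost under some alternatives (adjusted p up to 0.0724). Klf1 did not pass (0.08).

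Among dKO clones, 24 erythroid genes rose and 9 fell in Jak2V617F against Jak2WT, where 7.12% and 9.96% of all genes did. The higher count was 14 without Jak2WT dKO clone 1, and the lower count was 1 without that library, 2 without Jak2WT dKO clone 3 and 3 without Jak2V617F dKO clone 1. Of the membrane list 8 rose and 1 fell, with Kel higher by 5.40 ± 0.17 (adjusted p = 1.43e-05). Alad rose by 1.74 and Sox6 fell by 1.02. Tested as an interaction, the dKO effect differed between backgrounds for 16 list genes, 7 with a larger and 9 with a smaller log2 difference in Jak2V617F, where 4.72% and 5.91% of all genes did. Kel, among the 7, changed sign with a pseudocount of 0.1. With libraries scaled to the same total, the share of these calls over all genes that were higher turned from 44.4% to 75.0%. The list counts were 0 higher without Jak2WT GLUT1/3 WT clone 3, 1 without clone 1 of that group, 2 without Jak2WT dKO clone 1, and 3 without Jak2WT dKO clone 3 or either Jak2V617F GLUT1/3 WT clone. They were 0 lower without Jak2WT dKO clone 1, 1 without either Jak2WT GLUT1/3 WT clone, 4 without Jak2WT dKO clone 3 and 3 without Jak2V617F GLUT1/3 WT clone 1.

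Markers of other cell types also differed between the groups. The labels call the line myeloblast-like, and its myeloblast and granulocyte markers were mixed. Mpo and Elane were at or below 0.0885 and 0.121 FPKM in all libraries, whereas Prtn3 was 3.11 to 10.2 and Cebpe 4.20 to 44.2. The 12 myeloblast and granulocyte markers summed to 132 to 262 FPKM in Jak2WT GLUT1/3 WT, 104 to 157 in Jak2WT GLUT1/3 dKO, 27.0 to 30.5 in Jak2V617F GLUT1/3 WT and 10.8 to 31.6 in Jak2V617F GLUT1/3 dKO, S100a9, Ngp and Cebpe being the 3 highest in Jak2WT. Of their 6 tested genes 5 fell in Jak2V617F against Jak2WT, among GLUT1/3 WT and among dKO clones alike. The 12 megakaryocyte markers summed to 67.1 to 68.1, 94.3 to 99.4, 264 to 267 and 250.1 to 367 FPKM in the same order. The sums of both Jak2V617F groups overlapped and lay above those of Jak2WT. Itga2b gave most of the Jak2WT sums, and Itga2b with Itgb3 most of the Jak2V617F sums. Itgb3 was 1.89 to 4.29 FPKM in Jak2WT and 51.2 to 107 in Jak2V617F. Of the 7 tested megakaryocyte markers 4 rose in dKO clones in Jak2V617F and 3 in Jak2WT. Pf4, a platelet chemokine, was 28.2 and 2.03 FPKM in Jak2V617F GLUT1/3 dKO and at most 0.326 elsewhere, while Vwf stayed at or below 0.00895 and Gp1bb and Clec1b had no read.

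The 9 mast cell and basophil markers summed to 78.4 to 95.1 FPKM in Jak2WT GLUT1/3 WT and 51.4 to 102 in Jak2WT GLUT1/3 dKO, nearly all from Cpa3, and to at most 2.41 in the Jak2V617F libraries. The 6 markers of IL-3 responsive progenitors summed to 399 to 460 FPKM in Jak2WT GLUT1/3 WT, 275 to 362 in Jak2WT GLUT1/3 dKO, 324 to 335 in Jak2V617F GLUT1/3 WT and 123 to 136 in Jak2V617F GLUT1/3 dKO, with Kit at 0 throughout, and 3 of their 4 tested genes fell in dKO clones in Jak2V617F. The 8 macrophage markers summed to 29.1 to 31.1 FPKM in Jak2V617F GLUT1/3 dKO and 57.0 to 78.7 elsewhere, with Csf1r at or below 0.0523. B cell markers summed to at most 9.33 FPKM, nearly all Cd79b, and T cell markers to at most 0.987. The part of these cell types in the globin levels was not tested.

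Genes with a profile near that of the globins were sought over the 8 libraries, by the root mean square distance between a gene's centered log2(FPKM + 1) and the mean centered profile of the 7 members. Of 11811 other tested genes, the nearest was Parvb, an adaptor of integrin adhesions, at 0.45, and the median distance was 2.06. Parvb was 50.7 and 32.8 FPKM in Jak2V617F GLUT1/3 dKO, 10.2 and 7.19 in Jak2V617F GLUT1/3 WT, 2.53 and 2.49 in Jak2WT GLUT1/3 dKO and 0.543 and 0.405 in Jak2WT GLUT1/3 WT. Next came Fgf23, a phosphate-regulating hormone gene (0.67), Fhip1a (0.70), Kel (0.79), Gm37035 (0.84) and Il34, a ligand of the macrophage growth factor receptor (0.88). The remaining 4 of the nearest 10 were 3300005D01Rik, Cylc1, Gm17455 and Ppbp, another platelet chemokine, at 0.92 to 0.97. The members themselves lay 0.57 (Hbb-y) to 1.94 (Hbb-bs) from their own mean, so that Parvb was nearer to it than any member. The 8 points of a profile come from the libraries that define the mean, and the distances carry no test.

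**Figure D5:**
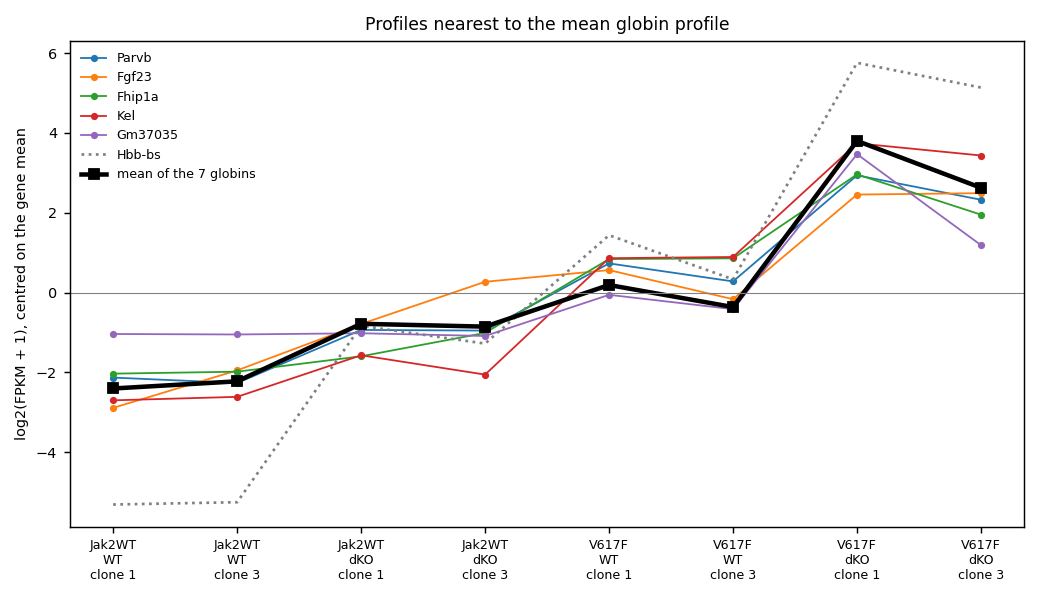
Centered log2(FPKM + 1) across the 8 libraries for the mean of the 7 globins (black squares), Hbb-bs (dotted) and the 5 other genes with the nearest profiles. The mean globin profile runs from -2.40 in Jak2WT GLUT1/3 WT clone 1 to 3.80 in Jak2V617F GLUT1/3 dKO clone 1.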

How the data were processed

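Poly(A) RNA of 8 clones (4 groups of 2) was sequenced as paired reads of 150 bases. The deposited table holds FPKM values per gene and clone, which the authors made by trimming reads (fastp 1.0.1), aligning them to mm39 (HISAT2 2.2.1) and counting them per gene (featureCounts 2.0.6). The annotation release, strand setting and handling of reads with several matches are not given in the sources used here. FPKM times gene length was a whole multiple of 1 step in each library (100% of values within 0.01 of a read), so reads were recovered.

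The 7 globin genes and all lists were chosen with earlier results of these data known. The 11818 genes that reached 1 FPKM in 2 or more libraries were fitted as log2(FPKM + 1) with limma 3.58.1 in R 4.3.3, with all 4 groups in one fit (4 residual degrees of freedom), trended eBayes and Benjamini-Hochberg adjustment over all genes at 0.05. Fold changes on this scale understate changes of low genes. No source says whether the clones were grown on separate days. Within each group the 2 clones differed beyond sampling noise. The fitting code was also tested on simulated reads with known changes, drawn with the same spread setting for every gene. Voom on the recovered reads called 2353 genes higher and 1613 lower in the dKO clones of Jak2V617F, and 1018 and 1597 in those of Jak2WT.

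Genes named were the members, the other globins and neighbors, a set of known erythroid genes, up to 3 called genes per list and comparison with the largest differences, markers, and the 10 nearest profiles; a few listed genes enter the counts but are not reported here by name. Counting intervals (95%, exact) and floors (3 reads per library) cover counting error only. Alternatives covered pseudocount, filter, scaling, trend, groups in the fit, recovered reads, replicate number and each library left out.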

Additional observations from a re-analysis of the deposited data

Results flagged for a closer look

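For 13 named erythroid genes the dKO effect differed between the backgrounds in the limma interaction term, given here as the log2 difference in Jak2V617F minus that in Jak2WT. It was larger in Jak2V617F for Alad (1.95 ± 0.20, adjusted p = 0.00867), Ank1 (1.38 ± 0.29, adjusted p = 0.0314) and Socs1 (1.21 ± 0.30, adjusted p = 0.0447). For Kel, which was at 0 and 0.0624 FPKM in Jak2WT GLUT1/3 WT, it was 1.87 ± 0.24 (adjusted p = 0.0102), but this direction depends on the pseudocount of 1: the value was -0.052 with a pseudocount of 0.1 (adjusted p = 0.956) and -2.80 with voom on recovered reads (adjusted p = 0.21). No direction is therefore given for Kel.

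It was lower in Jak2V617F for Rhag, an ammonium channel subunit of the Rh complex, by the widest margin of the 13 (-2.34 ± 0.26, adjusted p = 0.00867). Its FPKM was 31.4 and 30.7 in dKO clones of Jak2WT against 6.18 and 10.3 in their GLUT1/3 WT clones. In Jak2V617F it was 89.3 and 97.3 in dKO clones against 133 in both GLUT1/3 WT clones. The interaction was -1.04 for Ncoa4, -0.89 for Sox6, -0.88 for Cbfa2t3, -0.85 for Hmox1 and -0.84 for Gpx1. It was -0.61 for both Slc25a38 and Pim1 and -0.55 for Lyn, with adjusted p from 0.013 (Gpx1) to 0.0453 (Sox6) over these 8 genes. Each of the 13 calls was lost under at least 1 alternative setting, with a highest adjusted p from 0.0501 (Rhag) to 0.956 (Kel). The calls rest on 2 clones in each of 4 groups, and the counts without single libraries are given with the interaction in the text above.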

How the results depend on the processing

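Numbers of erythroid list genes called were 18 higher and 13 lower for dKO against GLUT1/3 WT in Jak2V617F, 9 and 3 in Jak2WT, 28 and 11 between backgrounds among GLUT1/3 WT clones, 24 and 9 among dKO clones, and 7 and 9 for the interaction. Fitting only the groups compared gave 9 higher and 8 lower in Jak2V617F, 8 lower in Jak2WT and 2 lower among dKO clones. Scaling to the same total gave 12 lower in Jak2WT and 14 higher for the interaction, and voom on recovered reads gave 9 and 14. Without a filter 6 were lower among GLUT1/3 WT clones, in a fit where limma warned that most gene variances were 0. With a pseudocount of 0.1 the beta sum differed by 6.27 in Jak2WT and by 8.05 among GLUT1/3 WT clones. The Kel interaction reversed, to -0.052 with that pseudocount and -2.80 with voom. The cause was not tested.

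Leaving out 1 library at a time gave 9 to 19 higher and 8 to 14 lower in Jak2V617F, and 2 to 11 and 0 to 4 in Jak2WT. It gave 18 to 33 and 3 to 12 among GLUT1/3 WT clones, 14 to 28 and 1 to 10 among dKO clones, and 0 to 7 and 0 to 10 for the interaction. The libraries behind the lowest counts are named in the text above. The alpha sum then differed by 0.85 to 1.88, 1.58 to 2.07, 2.94 to 3.65 and 2.32 to 3.35 in the first 4 comparisons, and the beta sum by 4.04 to 5.18, 3.94 to 4.62, 5.45 to 6.58 and 5.95 to 6.74.

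With the clone number as a replicate block the calls were 18 higher and 14 lower in Jak2V617F, 11 and 3 in Jak2WT, 28 and 9 among GLUT1/3 WT clones, 25 and 8 among dKO clones, and 8 and 8 for the interaction. Clones of one number did not deviate together (correlations of 0.0175, -0.0725, -0.254 and 0.0270). A crossed replicate block among GLUT1/3 WT clones, chosen after seeing the data, gave 28 and 10. With 2 clones a group and few reads on the globins of Jak2WT GLUT1/3 WT, folds against that group are limited by depth.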
